A study of Mus musculus with 29 samples.

Results

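The Hox genes of the Hoxa, Hoxb, Hoxc and Hoxd clusters were described in RNA-seq libraries of hematopoietic stem cells and multipotent progenitors. Members were taken by symbol (Hox, a cluster letter from a to d, and a number), which gave 35 of the 30025 genes in the deposited expression table: 11 of the Hoxa cluster, 9 of the Hoxb cluster, 8 of the Hoxc cluster and 7 of the Hoxd cluster. The cells came from 5 wild-type (WT, labelled WT/WT) and 5 5A3+/del (labelled WT/DEL) mice of the strain C57BL/6J, aged 12.42 to 13.85 weeks. The 5A3+/del mice carry a heterozygous germ line deletion of the 5A3 interval of mouse chromosome 5, made by Cre recombination in embryonic stem cells, so that every cell of the animal carries it and effects that begin outside the sorted cells cannot be told apart from effects inside them. From each mouse, bone marrow cells that were c-kit+, lineage negative, Sca-1+, CD48- and CD41- were sorted by CD150 into CD150hi HSC, CD150lo HSC and CD150neg MPP (the cell type label calls the last CD150neg HSC). There were 5 libraries per genotype and population, except for 4 in 5A3+/del CD150neg MPP, 29 in all. Amplified total RNA was sequenced, and the table gives FPKM, the fragments per kilobase of exon scaled to the mapped fragments of the library, so that levels of genes of different length can be compared.

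Hox genes encode homeodomain transcription factors that lie in 4 clusters, in which the order of the genes along the chromosome matches the order of their use along the head-to-tail axis of the embryo. Genes with the same number in different clusters, called paralogs, descend from a common ancestor, and low numbers are anterior while high numbers are posterior. In blood, genes of the Hoxa and Hoxb clusters are expressed in stem cells and early progenitors and decline as cells mature, and HOX proteins bind DNA together with the TALE homeodomain proteins of the PBX and MEIS families. In mm9 the Hoxa members lay at chr6:52105366-52210874 on the minus strand, the Hoxb members at chr11:96132771-96229570 on the plus strand, the Hoxc members at chr15:102751534-102867274 on the plus strand and the Hoxd members at chr2:74506367-74603200 on the plus strand. None of the clusters is on the chromosome that carries the deletion.

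The promoters of the members whose level differed between populations are shown first, because those genes carry the main result. A RefSeq promoter (build GRCm38.p6) was matched for 20 of the 35 members, among them 3 of the 8 that passed a test: Hoxb4 at chr11:96318017-96318266 on the plus strand, Hoxb8 at chr11:96281655-96281904 on the plus strand and Hoxa9 at chr6:52227371-52227620 on the minus strand. Each line gives the 250 bases before the start of the gene, 5′ to 3′ on the strand of the gene, and capitals mark a match to one of the motifs searched.
Hoxb4: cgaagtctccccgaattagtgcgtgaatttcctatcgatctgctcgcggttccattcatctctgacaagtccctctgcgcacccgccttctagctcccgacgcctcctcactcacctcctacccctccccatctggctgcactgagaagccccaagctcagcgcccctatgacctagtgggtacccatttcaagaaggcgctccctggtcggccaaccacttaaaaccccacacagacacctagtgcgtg
Hoxb8: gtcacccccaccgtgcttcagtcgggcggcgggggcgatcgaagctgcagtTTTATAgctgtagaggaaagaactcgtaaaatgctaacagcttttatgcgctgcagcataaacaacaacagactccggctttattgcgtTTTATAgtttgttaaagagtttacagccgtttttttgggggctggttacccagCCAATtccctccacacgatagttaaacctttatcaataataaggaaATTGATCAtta
Hoxa9: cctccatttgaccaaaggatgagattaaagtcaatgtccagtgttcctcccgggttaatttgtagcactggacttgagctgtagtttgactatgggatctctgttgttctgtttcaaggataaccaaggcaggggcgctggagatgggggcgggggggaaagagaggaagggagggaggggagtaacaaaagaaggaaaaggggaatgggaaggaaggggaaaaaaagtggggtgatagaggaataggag
The letters searched on both strands were those of the CCAAT box itself, of the E-box, written CACGTG, of the TATA box, written TATAAA, of a site where PBX binds together with HOX proteins, written TGATNNAT, and of a site of MEIS proteins, written TGACAG. Counted from the start of the gene, the Hoxb8 promoter held the TATA box at -199 to -194 and at -110 to -105, the CCAAT box at -57 to -53 and the site of PBX with HOX proteins at -11 to -4, with no overlap among them. The Hoxb4 and Hoxa9 windows held none of these letters. Over all 32851 promoters of the table, 33.8% held the CCAAT box, 12.4% the TATA box, 7.68% the site of PBX with HOX proteins, 15.9% the MEIS site and 6.02% the E-box. CpG dinucleotides numbered 14 in the Hoxb4 window and 12 in the Hoxb8 window but 3 in that of Hoxa9, beside a median of 6 over all promoters, and the GC content was 58%, 44.4% and 49.6%.

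Depth was 21229490 to 38797570 fragments per library (median 26967107), as recovered from the steps of the low values, and all 1015 Hox values (35 genes in 29 libraries) were whole fragments within 0.02. Mll5, one of the deleted genes, checked the genotype labels: in CD150hi HSC its FPKM averaged 43.6 ± 3.87 in the WT libraries (SD, n = 5) and 23.6 ± 3.57 in the 5A3+/del libraries (n = 5), and the difference passed the test in each population (log2 difference -0.88, -0.70 and -0.98 in CD150hi, CD150lo and CD150neg cells, adjusted p = 0.000548, 0.00693 and 0.000234). The sort was checked on Slamf1, which encodes CD150 and averaged 15.2, 1.29 and 0.112 FPKM in CD150hi, CD150lo and CD150neg cells, on Flt3, a progenitor receptor, which averaged 3.08, 29.7 and 49.3, and on Cd48, at 0.587, 3.08 and 6.51. Of 15 HSC and sort markers, 7 passed the test as higher and 4 as lower in CD150hi HSC than in CD150neg MPP. The shares over all genes were 6.99% and 6.2%. Against CD150lo HSC, 6 were higher and 3 lower, beside 4.23% and 3.41% of all genes. Itga2b, the gene of CD41, which the sort gated out, was among those higher than in CD150neg MPP. The libraries of WT mouse 3 stood apart in Xist, at 234 to 319 FPKM against 0.0237 to 0.470 in the 26 others. Counts of called Hox genes with both genotypes averaged are given with and without this mouse, and counts in the WT mice alone only with it.

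The Hoxa cluster carried most of the Hox transcripts. Its summed FPKM averaged 82.9 ± 6.69 (SD, n = 10) in CD150hi HSC, 80.7 ± 9.68 (n = 10) in the CD150lo libraries and 82.1 ± 15.6 (n = 9) in CD150neg MPP. The Hoxb cluster summed to 27.0 ± 3.92 in CD150hi HSC, 14.2 ± 2.84 in the CD150lo libraries and 13.1 ± 4.55 in CD150neg MPP, which was 24.3%, 15.0% and 13.6% of all Hox FPKM. Every CD150hi library (21.0 to 31.9) lay above every CD150lo (9.50 to 17.4) and CD150neg (7.84 to 19.8) library in this sum. The Hoxc cluster summed to 1.19, 0.680 and 0.483 and the Hoxd cluster to 0.162, 0.217 and 0.227 on average in the same order. A lower FPKM in such bulk libraries can come from fewer cells with the transcript or from less of it per cell, and these cannot be told apart.

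**Figure D1:**
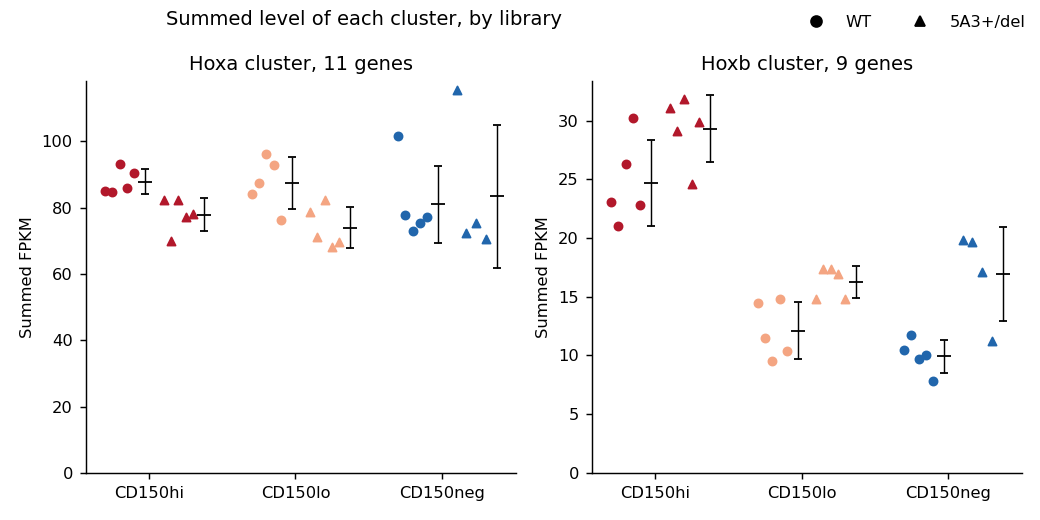
Summed FPKM of the 11 Hoxa and the 9 Hoxb genes in every library, by population and genotype. Points are libraries and black marks the mean ± SD of a group. The Hoxa sum is of like size in the 3 populations, while the Hoxb sum of CD150hi libraries (21.0 to 31.9) lies above that of all CD150lo and CD150neg libraries.

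Levels were also summed by position in the cluster, over unequal numbers of members, so these sums do not rank the positions by level. The central members (paralogs 4 to 8) summed to 72.8 ± 6.57 FPKM in CD150hi HSC, 57.5 ± 4.85 in the CD150lo libraries and 57.3 ± 15.1 in CD150neg MPP, the posterior members (9 to 13) to 26.0 ± 5.46, 30.1 ± 5.70 and 29.3 ± 2.53, and the anterior members (1 to 3) to 12.4 ± 4.49, 8.21 ± 1.74 and 9.18 ± 3.14. In order of mean FPKM over the 29 libraries, the highest 6 were Hoxa9 (20.7), Hoxa5 (20.5), Hoxa6 (14.2), Hoxa7 (10.2), Hoxb4 (7.64) and Hoxa10 (6.96). The ranges over libraries of Hoxa9 and Hoxa5 overlapped, as did those of Hoxa6 and Hoxa7 and of Hoxb4 and Hoxa10. Behind them came Hoxa3 (4.42), Hoxb5 (4.05), Hoxa2 (2.74), Hoxb6 (2.62), Hoxb3 (2.33) and Hoxa4 (1.86), and then Hoxc6 (0.562), Hoxb9 (0.550), Hoxb7 (0.510), Hoxb8 (0.378) and Hoxb2 (0.142). Another 17 members averaged under 0.1 FPKM. With 3 fragments as the floor of detection, 19 to 24 members (median 20) were detected per CD150hi library, 16 to 20 (median 18) per CD150lo library and 14 to 21 (median 17) per CD150neg library.

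**Figure D2:**
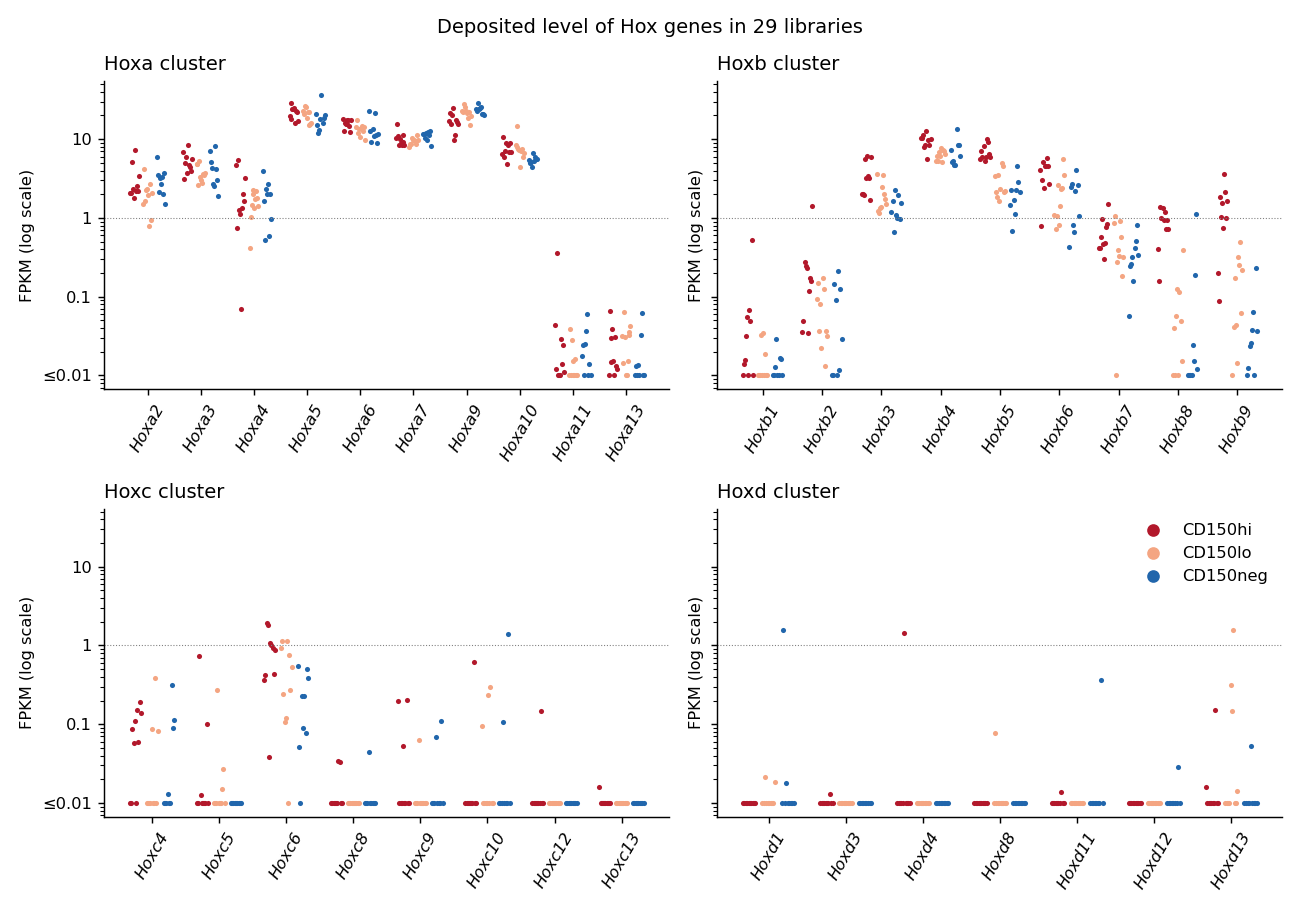
FPKM of Hox genes in every library (log axis), by cluster and position within it. Points are libraries colored by population, values of 0.01 or less are drawn at 0.01, and the dotted line is at 1 FPKM. Hoxa9, Hoxa5, Hoxa6 and Hoxa7 have the highest means (20.7, 20.5, 14.2 and 10.2 FPKM), Hoxb4 (7.64) is the highest of its cluster, and nearly all Hoxc and Hoxd members sit near 0.

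For the tests, only genes that reached 1 FPKM in 4 or more libraries were used, which left 15 Hox genes (8 Hoxa, 6 Hoxb, Hoxc6 and no Hoxd gene) among 15409 genes. Hoxb8, Hoxb9 and Hoxc6 would not pass this filter without the CD150hi libraries, so counts over the 15 are a description, and the tests of these 3 genes are given from a fit with no filter. Hoxb8 reached 1 FPKM in 3 CD150hi libraries and 1 CD150neg library. Differences were tested with limma on quantile normalized log2(FPKM + 1), two-sided, with p-values adjusted over the 15409 genes, and a gene was called at an adjusted p under 0.05. Because of the pseudocount of 1, the log2 differences understate the change of low genes. Between CD150hi HSC and CD150neg MPP, both genotypes averaged, 8 of the 15 genes were called: Hoxb3, Hoxb4, Hoxb5, Hoxb6, Hoxb8, Hoxb9 and Hoxc6 were higher in CD150hi HSC and Hoxa9 was lower. Over all genes tested, 6.99% were called higher and 6.2% lower. Between CD150hi and CD150lo HSC 5 were called, Hoxb4, Hoxb5, Hoxb8 and Hoxb9 higher and Hoxa9 lower, beside 4.23% of all genes higher and 3.41% lower. Both comparisons use the CD150hi libraries. Between CD150lo HSC and CD150neg MPP none of the 15 was called (smallest adjusted p = 0.238, 2 genes with an unadjusted p under 0.05), beside 0.292% of all genes. Of the 12 members that pass the filter also without the CD150hi libraries, 4 were higher and 1 lower against CD150neg MPP, and 2 were higher and 1 lower against CD150lo HSC. With no filter on low values, 6 of all 35 members were higher and 1 lower against CD150neg MPP, the same genes but Hoxc6, beside 3.53% and 3.01% of 30025 genes, and the same 5 genes were called against CD150lo HSC, beside 2.08% higher and 1.64% lower. Without WT mouse 3 the counts of called genes were 6 and 3, without 5A3+/del mouse 3 they were 5 and 3, and without 5A3+/del mouse 2 the count against CD150lo HSC was 3, and in each of these fits Hoxb8 fell below the filter, so that 14 members were tested. Over all genes, 1836 and 1004 of 15255 were called without WT mouse 3 and 1638 and 960 of 15242 without 5A3+/del mouse 3. Without 5A3+/del mouse 2, 963 of 15229 were called against CD150lo HSC. With all mice these were 2033 and 1177 of 15409.

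**Figure D3:**
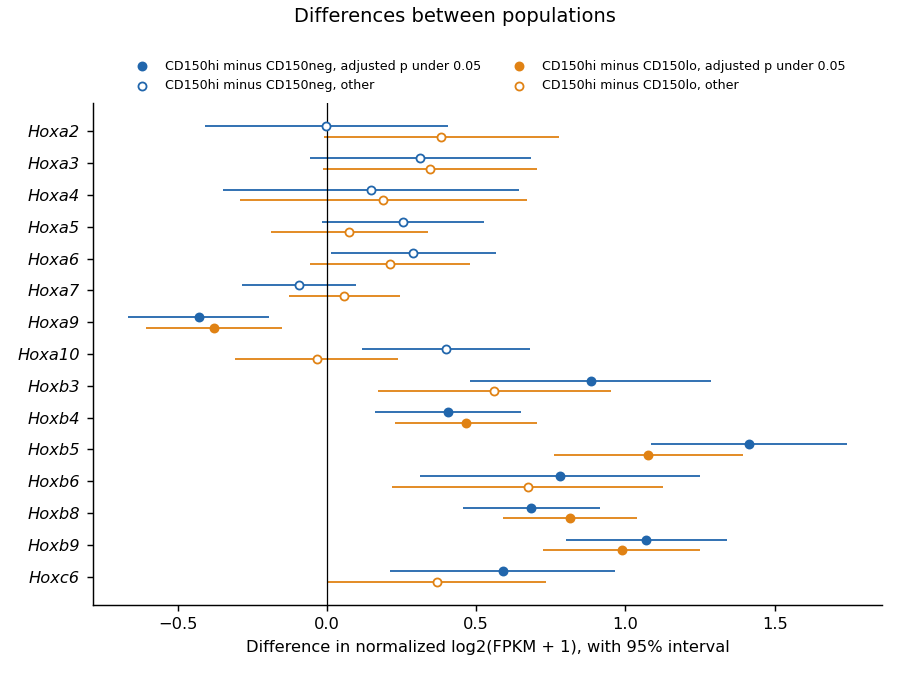
Log2 differences between populations with 95% confidence intervals for the 15 Hox genes tested, for CD150hi minus CD150neg and CD150hi minus CD150lo. Filled points passed the adjusted p of 0.05. The 6 Hoxb genes stand to the right of 0 and Hoxa9 to the left in both comparisons.

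Values per library are given below in the order of the mice, 1 to 5 of each genotype (1 to 4 for 5A3+/del CD150neg MPP). Hoxb5, whose expression marks long-term repopulating stem cells in mice, had the largest log2 difference at the pseudocount of 1, while with a pseudocount of 0.1 those of Hoxb8 and Hoxb9 were larger (2.28 and 3.01 against 1.81 for Hoxb5 in CD150hi minus CD150neg). In WT mice its FPKM was 5.68, 7.18, 6.02, 8.24 and 5.23 in CD150hi HSC, 3.45, 2.11, 1.84, 3.46 and 1.62 in the CD150lo libraries and 1.46, 2.27, 0.686, 1.70 and 1.13 in CD150neg MPP. In 5A3+/del mice it was 5.93, 10.1, 9.15, 6.48 and 5.89 in CD150hi HSC, 2.36, 5.03, 4.51, 2.12 and 2.22 in the CD150lo libraries and 2.24, 4.50, 2.83 and 2.13 in CD150neg MPP. All CD150hi libraries were above all others, which makes Hoxb5 the one Hox gene without overlap, beside 1.13% of all genes tested for CD150hi above CD150neg and 0.565% for CD150hi above CD150lo. Hoxb5 was higher in CD150hi HSC by a log2 difference of 1.41 ± 0.16 (SE; 95% confidence interval 1.09 to 1.74, adjusted p = 1.81e-07) against CD150neg MPP, in 9 of 9 mice, and by 1.08 ± 0.15 (0.76 to 1.39, adjusted p = 1.78e-05) against CD150lo HSC, in 10 of 10 mice. An antisense gene, 0610040B09Rik, shares 100 bp (3.56%) of the Hoxb5 exons, and it averaged 3.25, 2.76 and 3.18 FPKM in CD150hi, CD150lo and CD150neg cells, with no call.

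Hoxb9, a posterior member, and its neighbor Hoxb8 averaged 1.39 and 0.881 FPKM in CD150hi HSC, 0.160 and 0.0797 in the CD150lo libraries and 0.0483 and 0.151 in CD150neg MPP. Hoxb9, which takes part in patterning the ribs, had 13, 7, 130, 73 and 125 fragments in WT CD150hi HSC, which is 0.200, 0.0881, 1.85, 1.03 and 1.54 FPKM. In 5A3+/del CD150hi HSC it had 51, 241, 147, 80 and 142 fragments (0.744, 3.65, 2.15, 1.01 and 1.63 FPKM). WT mice 1 and 2 were the low CD150hi libraries, within the range of the CD150lo libraries. The CD150lo libraries had 0, 3, 11, 3 and 1 fragments of Hoxb9 in WT and 20, 17, 29, 4 and 16 in 5A3+/del mice (0 to 0.490 FPKM), and the CD150neg libraries had 0, 1, 2, 2 and 3 in WT and 4, 0, 16 and 3 in 5A3+/del mice (0 to 0.235 FPKM). The log2 difference of Hoxb9 was 1.07 ± 0.13 (SE; higher in 9 of 9 mice) against CD150neg MPP and 0.99 ± 0.13 (10 of 10 mice) against CD150lo HSC. Because Hoxb9 passed the filter through its CD150hi libraries, its test is taken from the fit with no filter on low values, where it was higher in CD150hi HSC by 1.08 (adjusted p = 5.43e-06) and 0.95 (adjusted p = 4.59e-05).

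Hoxb8, which blocks the maturation of myeloid progenitors when it is overexpressed, had 27, 13, 100, 72 and 111 fragments in WT and 67, 81, 51, 76 and 65 in 5A3+/del CD150hi HSC (0.159 to 1.39 FPKM over both). In CD150lo HSC it had 0, 3, 0, 4 and 9 fragments in WT and 0, 8, 3, 1 and 30 in 5A3+/del mice (0 to 0.395 FPKM). In CD150neg MPP it had 0, 0, 0, 0 and 2 fragments in WT and 1, 13, 78 and 1 in 5A3+/del mice, and the libraries with 13 and 78 (0.190 and 1.11 FPKM) reached into the CD150hi range. Its log2 difference was 0.69 ± 0.11 (SE; higher in 8 of 9 mice) against CD150neg MPP and 0.82 ± 0.11 (10 of 10 mice) against CD150lo HSC. With no filter on low values, Hoxb8 was higher in CD150hi HSC by 0.70 (adjusted p = 0.000119) and 0.80 (adjusted p = 3.05e-05). The Hoxb8 exons share 1069 bp (40.4%) with those of Hoxb7 on the same strand, so reads there cannot be assigned to one of them. Hoxb7 itself stayed below the filter, with a median of 0.531 FPKM in CD150hi, 0.360 in CD150lo and 0.322 in CD150neg libraries and at least 3 fragments in 28 of 29 libraries.

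Hoxb4, whose overexpression expands hematopoietic stem cells, was the most abundant Hoxb gene. Its FPKM in WT mice was 10.3, 10.3, 11.2, 7.89 and 8.35 in CD150hi HSC, 5.33, 6.13, 5.24, 6.93 and 6.06 in the CD150lo libraries and 7.31, 5.14, 5.25, 4.74 and 4.72 in CD150neg MPP, so that the WT CD150hi libraries lay above the others. In 5A3+/del mice it was 12.6, 5.56, 9.83, 8.40 and 10.0 in CD150hi HSC, 7.74, 5.10, 7.29, 7.17 and 6.58 in the CD150lo libraries and 13.7, 8.42, 8.38 and 6.11 in CD150neg MPP, and these overlap. Against CD150lo HSC the difference was 0.47 ± 0.12 (log2, SE; 0.23 to 0.70; adjusted p = 0.0093), in 10 of 10 mice. Against CD150neg MPP it was 0.41 ± 0.12 (0.16 to 0.65; adjusted p = 0.021), in 7 of 9 mice. The latter call rested on the WT mice: in WT alone the log2 difference was 0.75 (adjusted p = 0.00263) and in 5A3+/del alone 0.06 (adjusted p = 0.913), while the difference between the genotypes in this gap was -0.69 (-1.18 to -0.20) with an adjusted p of 0.426. The call also ended without quantile normalization (adjusted p = 0.0533), in a fit of the groups compared alone (adjusted p = 0.0616) and without any one of WT mice 2 and 3 and 5A3+/del mice 3 and 4 (adjusted p = 0.0626, 0.0515, 0.0651 and 0.0928).

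Hoxb3 and Hoxb6, which lie on either side of Hoxb4 and Hoxb5, were higher in CD150hi HSC than in CD150neg MPP. Hoxb3, an anterior member whose overexpression disturbs lymphoid development, had 2.02, 1.99, 1.95, 5.68 and 3.21 FPKM in WT CD150hi HSC, 3.62, 1.24, 1.14, 1.34 and 1.36 in the CD150lo libraries and 1.18, 1.63, 0.672, 2.28 and 1.10 in CD150neg MPP. Hoxb3 in 5A3+/del mice had 6.05, 3.36, 3.23, 1.68 and 6.02 FPKM in CD150hi HSC, 2.47, 3.54, 2.02, 1.75 and 1.48 in the CD150lo libraries and 0.987, 1.98, 0.980 and 1.56 in CD150neg MPP. The CD150hi libraries spread widely, and 3 of them, WT mouse 4 and 5A3+/del mice 1 and 5, stood at 5.68 or above. Its log2 difference was 0.88 ± 0.20 (SE; adjusted p = 0.00207; 9 of 9 mice) against CD150neg MPP and 0.56 ± 0.19 (0.17 to 0.95; adjusted p = 0.0723) against CD150lo HSC. The antisense gene Hoxb3os covers 1140 bp (37.9%) of the Hoxb3 exons and averaged 4.61, 4.00 and 3.14 FPKM in CD150hi, CD150lo and CD150neg cells (adjusted p = 0.0573 for CD150hi minus CD150neg), and since the counting is not stated to use strand, reads of a gene and its antisense partner cannot be told apart.

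Hoxb6, whose overexpression expands myeloid precursors, spread widely between mice. Its FPKM in WT mice was 4.08, 0.796, 3.03, 5.13 and 2.38 in CD150hi HSC, 1.08, 0.728, 1.06, 2.58 and 0.804 in the CD150lo libraries and 0.431, 2.46, 2.66, 0.811 and 0.672 in CD150neg MPP. In 5A3+/del mice it was 4.54, 4.53, 5.78, 4.61 and 2.72 in CD150hi HSC, 1.43, 2.30, 2.43, 5.56 and 3.54 in the CD150lo libraries and 2.21, 4.06, 2.62 and 1.06 in CD150neg MPP. The groups overlap, and WT mouse 2 had the lowest CD150hi value. The log2 difference was 0.78 ± 0.23 (SE; 0.31 to 1.25; adjusted p = 0.0204; 8 of 9 mice) against CD150neg MPP and 0.67 ± 0.22 (0.22 to 1.13; adjusted p = 0.0624) against CD150lo HSC. The Hoxb6 call ended without any one of WT mice 1 and 4 and 5A3+/del mice 3 and 4 (adjusted p = 0.0826, 0.0723, 0.0551 and 0.0749).

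**Figure D4:**
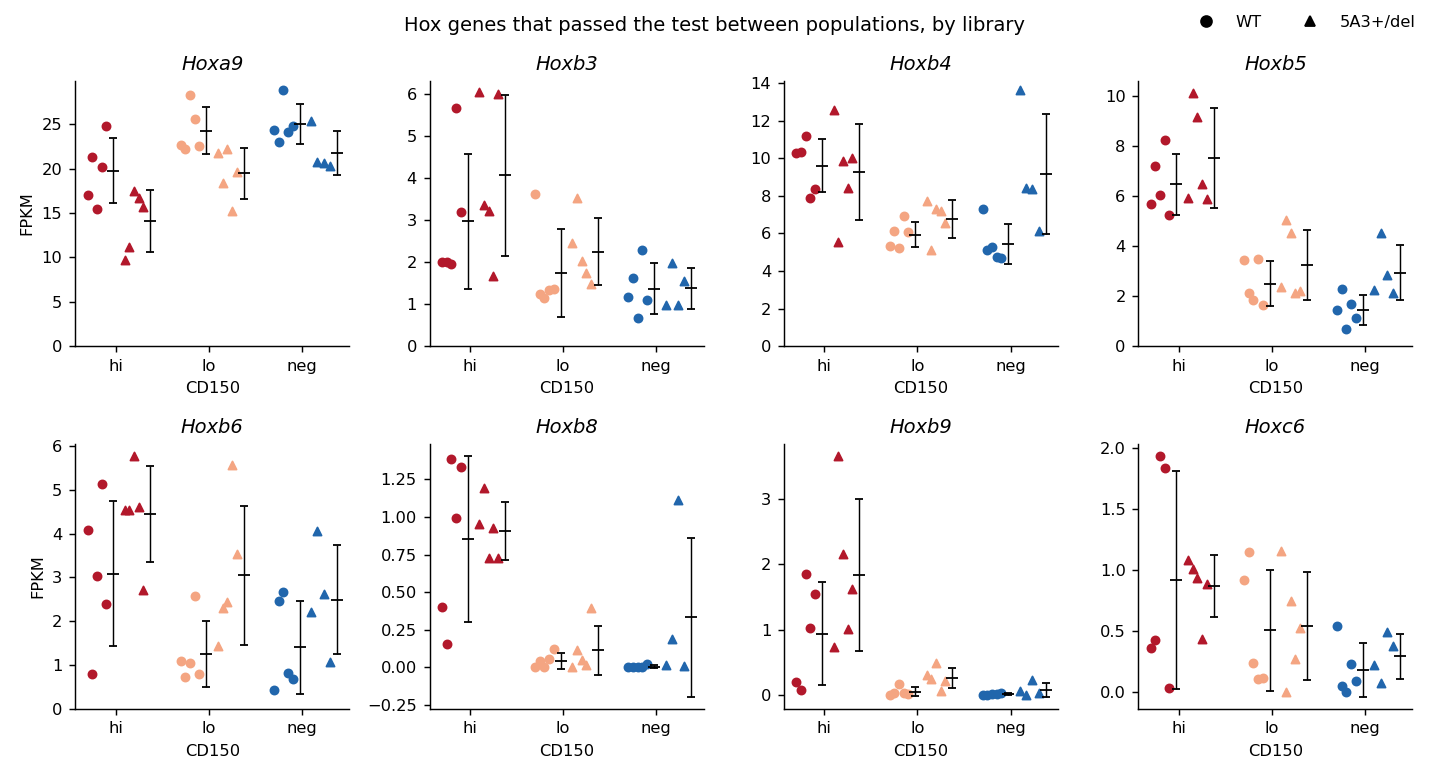
FPKM of the 8 called Hox genes in every library, by population and genotype. Points are libraries and black marks the mean ± SD of a group. Hoxb5 shows no overlap between CD150hi HSC and the other populations, Hoxb8 and Hoxb9 are lower on average outside CD150hi HSC, with CD150lo libraries of up to 0.395 and 0.490 FPKM and a CD150neg library of 1.11 FPKM of Hoxb8 that overlap CD150hi libraries, and Hoxa9 runs the other way.

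Hoxa9, a posterior gene required for normal numbers and function of stem cells and known from acute leukemia, was lower in CD150hi HSC. In WT mice its FPKM was 17.0, 21.3, 15.5, 20.2 and 24.8 in CD150hi HSC, 22.7, 22.2, 28.3, 25.6 and 22.5 in the CD150lo libraries and 24.4, 23.0, 28.9, 24.1 and 24.8 in CD150neg MPP. In 5A3+/del mice it was 9.66, 11.2, 17.5, 16.7 and 15.7 in CD150hi HSC, 21.8, 18.3, 22.3, 15.2 and 19.6 in the CD150lo libraries and 25.4, 20.7, 20.6 and 20.3 in CD150neg MPP. The lowest libraries were CD150hi HSC of 5A3+/del mice 1 and 2, the other CD150hi libraries lay within the CD150lo range, and those of WT mice 2 and 5 lay within the CD150neg range. Hoxa9 was lower in CD150hi HSC by a log2 difference of -0.43 ± 0.11 (SE; -0.66 to -0.19; adjusted p = 0.0105; higher in 1 of 9 mice) against CD150neg MPP and of -0.38 ± 0.11 (-0.61 to -0.15; adjusted p = 0.0326; higher in 2 of 10 mice) against CD150lo HSC. With the mouse as a block in the fit, the difference from CD150lo HSC passed as a random effect (adjusted p = 0.0253) but not as a fixed term (adjusted p = 0.0597), and it did not pass in a fit of the groups compared alone (adjusted p = 0.0788) or without any one of WT mice 1, 3 and 4 and 5A3+/del mice 1, 2 and 3 (adjusted p = 0.066, 0.122, 0.0721, 0.12, 0.0932 and 0.0573).

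The other abundant Hoxa genes had no call between populations with both genotypes averaged. Hoxa5, which favors myeloid over erythroid differentiation when overexpressed, had 19.6, 17.8, 28.4, 24.5 and 24.2 FPKM in WT CD150hi HSC, 22.7, 21.0, 26.4, 26.0 and 18.5 in the CD150lo libraries and 20.6, 15.1, 12.1, 13.1 and 17.8 in CD150neg MPP. Hoxa5 in 5A3+/del mice had 24.9, 16.0, 23.1, 21.95 and 17.2 FPKM in CD150hi HSC, 22.3, 15.3, 22.02, 15.5 and 16.1 in the CD150lo libraries and 36.3, 16.1, 18.7 and 20.4 in CD150neg MPP. The CD150neg library of 5A3+/del mouse 1, at 36.3, was the highest of the 29. The log2 difference of Hoxa5 between CD150hi HSC and CD150neg MPP was 0.25 (-0.02 to 0.53; adjusted p = 0.234), and in the WT mice alone it passed, at 0.57 (0.20 to 0.94; adjusted p = 0.044). WT mouse 3 had the highest WT value in CD150hi HSC (28.4) and the lowest in CD150neg MPP (12.1). The comparison in WT mice alone was not run without it.

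Hoxa6, a neighbor of Hoxa5 with a role in the axial skeleton, had 17.9, 12.8, 16.3, 15.4 and 15.8 FPKM in WT CD150hi HSC, 14.4, 17.4, 11.9, 13.6 and 10.5 in the CD150lo libraries and 22.7, 12.5, 9.23, 13.6 and 10.9 in CD150neg MPP. In 5A3+/del mice Hoxa6 had 17.5, 17.5, 14.5, 12.3 and 17.3 FPKM in CD150hi HSC, 14.0, 14.9, 12.8, 14.1 and 9.65 in the CD150lo libraries and 21.6, 11.4, 8.87 and 11.6 in CD150neg MPP. Mouse 1 of each genotype was the high CD150neg library, and the groups overlap. The log2 difference of Hoxa6 between CD150hi HSC and CD150neg MPP was 0.29 (0.01 to 0.57; adjusted p = 0.177).

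Hoxa7, which patterns the axial skeleton, had the smallest spread of the 15 tested members over the 29 libraries (SD of the log2 value 0.19). It had 10.5, 15.8, 11.1, 8.35 and 9.99 FPKM in WT CD150hi HSC, 7.87, 8.73, 8.72, 10.4 and 9.89 in the CD150lo libraries and 11.6, 11.6, 10.4, 11.9 and 9.63 in CD150neg MPP. Hoxa7 in 5A3+/del mice had 8.88, 8.38, 11.2, 9.16 and 8.55 FPKM in CD150hi HSC, 9.76, 9.52, 8.57, 11.2 and 9.80 in the CD150lo libraries and 12.5, 11.2, 12.9 and 8.23 in CD150neg MPP. All 3 populations overlap, with WT mouse 2 the highest. Its log2 difference between CD150hi HSC and CD150neg MPP was -0.09 (-0.28 to 0.10). The antisense gene 2700086A05Rik shares 586 bp (20.4%) of the Hoxa7 exons.

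Hoxa10, a posterior gene that alters myeloid and megakaryocytic differentiation when overexpressed, had 6.40, 10.6, 5.94, 7.07 and 8.86 FPKM in WT CD150hi HSC, 8.49, 8.07, 14.7, 7.49 and 7.29 in the CD150lo libraries and 5.47, 5.00, 5.06, 4.38 and 6.74 in CD150neg MPP. Hoxa10 in 5A3+/del mice had 4.81, 8.51, 6.84, 9.03 and 6.95 FPKM in CD150hi HSC, 4.48, 7.13, 7.47, 5.91 and 6.62 in the CD150lo libraries and 5.28, 5.87, 5.68 and 5.59 in CD150neg MPP. The CD150neg libraries lay at the low end of the range. The log2 difference of Hoxa10 was 0.40 (0.12 to 0.68; adjusted p = 0.0522; higher in 8 of 9 mice) for CD150hi minus CD150neg and 0.44 (0.15 to 0.72; adjusted p = 0.238) for CD150lo minus CD150neg, and neither passed. For CD150hi minus CD150neg it passed in 6 of the alternatives tried, with adjusted p down to 0.0108.

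Hoxa2 and Hoxa3, anterior members, and Hoxa4, a central one, had lower mean levels than the Hoxa genes from Hoxa5 to Hoxa10 and had no call. Hoxa2, which patterns the hindbrain and the second branchial arch, averaged 3.09 ± 1.73 FPKM in CD150hi HSC, 2.05 ± 0.975 in the CD150lo libraries and 3.11 ± 1.29 in CD150neg MPP. Hoxa3, needed for the thymus, averaged 5.16 ± 1.59, 3.74 ± 0.923 and 4.34 ± 2.15 FPKM in the same order, and Hoxa4 averaged 2.16 ± 1.75, 1.57 ± 0.565 and 1.86 ± 1.10. The adjusted p of CD150hi minus CD150lo was 0.274 for Hoxa2, 0.28 for Hoxa3 and 0.731 for Hoxa4. The table lists Hoxa3 under an identifier outside the annotation used here, and its values were whole fragments only with the 6566 bp exon length of the annotated gene that spans chr6:52118509-52163335. Several antisense transcripts overlap its exons, the longest overlap being 1055 bp with 5730446D14Rik.

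Hoxc6 was the one Hoxc gene above the filter, and its level was low and uneven. It had 23, 33, 132, 126 and 3 fragments in WT CD150hi HSC (0.0380 to 1.94 FPKM), 89, 82, 15, 7 and 8 in the CD150lo libraries and 29, 4, 0, 17 and 7 in CD150neg MPP. Hoxc6 in 5A3+/del mice had 72, 65, 62, 34 and 75 fragments in CD150hi HSC, 71, 0, 43, 17 and 38 in the CD150lo libraries and 14, 5, 33 and 30 in CD150neg MPP. The groups overlap, and WT mouse 5 had 3 fragments in CD150hi HSC where WT mice 3 and 4 had 132 and 126. Its log2 difference between CD150hi HSC and CD150neg MPP was 0.59 ± 0.18 (SE; 0.21 to 0.97; higher in 7 of 9 mice), which passed with the filter that its CD150hi libraries had met (adjusted p = 0.0308) but not with no filter on low values (0.58, adjusted p = 0.0647). The difference from CD150lo HSC was 0.37 (0.00 to 0.73; adjusted p = 0.254). The Hoxc6 call was lost in 9 of 21 alternatives, among them leaving out any one of 6 mice (WT mice 2, 3 and 4 and 5A3+/del mice 1, 2 and 5), with adjusted p up to 0.352.

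The 20 members below the filter were detected patchily. Hoxb2, an anterior gene of hindbrain patterning, had at least 3 fragments in 23 libraries (10 CD150hi, 8 CD150lo and 5 CD150neg) and at most 1.42 FPKM, and Hoxb1 in 4 libraries, all CD150hi, with at most 38 fragments. Hoxa11 and Hoxa13, genes of limb and urogenital development, had at least 3 fragments in 5 and 6 libraries and at most 26 and 5 fragments. The antisense gene Hoxb3os covers 1632 bp (49.4%) of the Hoxb2 exons, and Hoxa11as covers 1038 bp (38.6%) of those of Hoxa11. Reads there cannot be told apart from those of the antisense gene. In the Hoxc cluster, Hoxc4 reached 3 fragments in 13 libraries, Hoxc9 and Hoxc10 in 6 each, Hoxc5 in 3, Hoxc8 and Hoxc12 in 1 each and Hoxc13 in none. Single libraries stood out, such as Hoxc10 with 70 fragments (1.38 FPKM) in CD150neg MPP of 5A3+/del mouse 3 and Hoxc5 with 59 in CD150hi HSC of WT mouse 3.

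Hoxd genes were near the floor in nearly all libraries. Hoxd13, which patterns the digits, reached 3 fragments in 5 libraries and 103 fragments (1.57 FPKM) in CD150lo HSC of 5A3+/del mouse 2. Hoxd1 had 91 fragments (1.58 FPKM) in CD150neg MPP of WT mouse 2 and Hoxd4 had 97 (1.42 FPKM) in CD150hi HSC of 5A3+/del mouse 1, each the one library with at least 3 fragments. Hoxd11 had 52 fragments in 1 library and Hoxd8 had 6 in 1 library, while Hoxd3 and Hoxd12 had at most 2 anywhere. Hoxd4 shares 1725 bp (67.4%) of its exons with Hoxd3.

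The deletion was compared within each population, which asks whether the loss of 1 copy of the interval moved Hox genes. No Hox gene was called by limma in CD150hi, CD150lo or CD150neg cells, where 0.156%, 0.0324% and 0.0454% of all genes were. The smallest adjusted p was 0.198, 0.516 and 0.596, and 2, 2 and 4 of the 15 had an unadjusted p under 0.05, beside 13.1%, 6.87% and 4.27% of all genes. In CD150hi HSC, Hoxa9 averaged 19.8 ± 3.68 FPKM in the WT libraries (SD, n = 5) and 14.1 ± 3.47 in the 5A3+/del libraries (n = 5, log2 difference -0.46, -0.78 to -0.14, adjusted p = 0.198), and Hoxb9 averaged 0.943 ± 0.787 and 1.84 ± 1.15 (0.53, 0.16 to 0.90, adjusted p = 0.198). Granulocyte and monocyte markers in the same cells had a median summed FPKM of 338 in the WT libraries (79.5 to 898) and 50.5 in the 5A3+/del libraries (36.3 to 154). These ranges overlap. The median log2 difference was -1.10, none of the 7 genes was called, and the part of these markers in the Hox values was not tested. In CD150lo HSC, Hoxb6 averaged 1.25 ± 0.760 in WT and 3.05 ± 1.59 in 5A3+/del mice (0.84, 0.19 to 1.48, adjusted p = 0.516), and the log2 difference of Hoxa10 was -0.45 (-0.84 to -0.07, adjusted p = 0.606). In CD150neg MPP, Hoxb4 averaged 5.43 ± 1.08 in the WT libraries (n = 5) and 9.14 ± 3.19 in the 5A3+/del libraries (n = 4, 0.63, 0.27 to 0.99, adjusted p = 0.596), and Hoxb5 averaged 1.45 ± 0.595 and 2.93 ± 1.10 (0.70, 0.22 to 1.17, adjusted p = 1). In the same cells the log2 difference was 0.48 for Hoxa5 (0.09 to 0.88, adjusted p = 1) and 0.39 for Hoxb8 (0.06 to 0.73, adjusted p = 1). These intervals leave out 0 but did not pass the adjustment over all genes, and they do not show that the genotypes are alike.

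**Figure D5:**
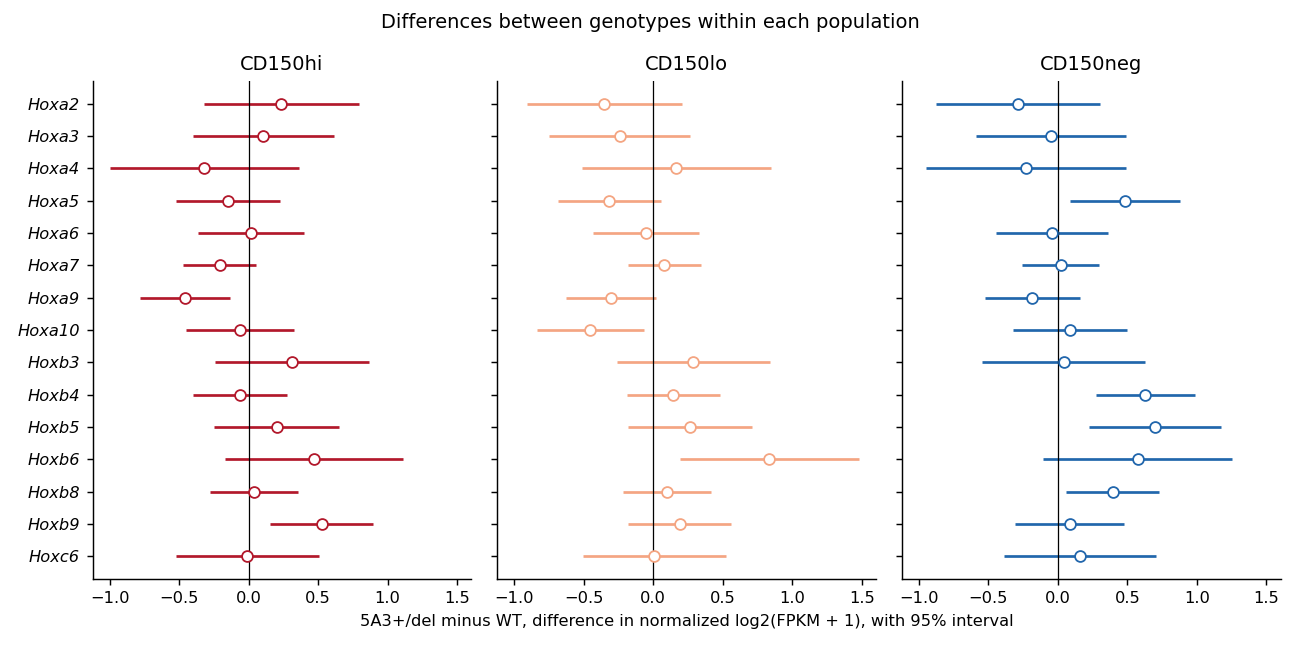
Log2 differences of 5A3+/del minus WT with 95% confidence intervals for the 15 Hox genes tested, in each population. No gene passed the adjusted p of 0.05, and the values run from -0.46 to 0.53 in CD150hi HSC, from -0.45 to 0.84 in the CD150lo libraries and from -0.29 to 0.70 in CD150neg MPP.

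Summed over the Hoxb cluster, the 5A3+/del libraries averaged 29.3 ± 2.84 FPKM against 24.7 ± 3.62 in WT CD150hi HSC, 16.3 ± 1.34 against 12.1 ± 2.39 in the CD150lo libraries and 17.0 ± 4.00 against 9.95 ± 1.41 in CD150neg MPP. The ranges of the Hoxb sums overlap between genotypes in all 3 populations. The Hoxa sum in CD150hi HSC was 77.9 ± 5.02 in 5A3+/del (70.0 to 82.3) and 87.8 ± 3.76 in WT mice (84.6 to 93.1), with no overlap. In the CD150lo libraries it was 74.0 ± 6.17 (68.2 to 82.3) and 87.4 ± 7.74 (76.4 to 96.1), which overlap. In CD150neg MPP the 5A3+/del mean was the higher one, at 83.5 ± 21.5 (70.4 to 115.5) against 81.0 ± 11.7 (72.9 to 101.6), again with overlap. The ratio of the Hoxb to the Hoxa sum ran from 0.319 to 0.416 in 5A3+/del and 0.248 to 0.352 in WT CD150hi HSC, from 0.189 to 0.248 and 0.0988 to 0.172 in the CD150lo libraries and from 0.160 to 0.272 and 0.102 to 0.151 in CD150neg MPP, so that the genotypes overlap in CD150hi HSC and do not in the other populations. The sums and ratios are a description and were not tested. Whether the gap between populations differed with the genotype was tested for each pair of populations, and no Hox gene was called (smallest adjusted p = 0.426, 0.999 and 0.686 for CD150hi and CD150neg, CD150hi and CD150lo, and CD150lo and CD150neg cells), beside 0% of all genes. At an unadjusted p under 0.05 these were 2, 0 and 1 of the 15. In the WT mice alone, 5 Hox genes (Hoxa5, Hoxb4, Hoxb5, Hoxb8 and Hoxb9) were called for CD150hi minus CD150neg, beside 10% of all genes, and in the 5A3+/del mice alone 4 (Hoxa9, Hoxb3, Hoxb5 and Hoxb9), beside 6.16%. For CD150hi minus CD150lo these were 4 (Hoxb4, Hoxb5, Hoxb8 and Hoxb9) and 3 (Hoxb5, Hoxb8 and Hoxb9), beside 3.53% and 3.18%. Hoxb8 and Hoxb9 would not pass the filter without the CD150hi libraries. No fit without the filter was run on each genotype alone, so their calls here are a description.

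Genes of the TALE family, whose proteins bind DNA together with HOX proteins, were tested in the same fit. Of 8 such genes described here 6 passed the filter, of which 2 were higher and 1 was lower against CD150neg MPP and 2 were higher against CD150lo HSC, beside 6.99% higher and 6.2% lower and 4.23% higher of all genes. Pbx3, a TALE partner of HOX proteins, averaged 3.89, 1.93 and 1.35 FPKM in CD150hi, CD150lo and CD150neg cells (log2 difference 1.04 against CD150neg MPP and 0.72 against CD150lo HSC, adjusted p = 1.59e-06 and 0.000353). Meis1, the partner of Hoxa9, averaged 72.9, 61.1 and 57.3 (0.39 and 0.26, adjusted p = 0.000336 and 0.0188). Pknox1, another TALE gene, was lower in CD150hi HSC than in CD150neg MPP (-0.49, adjusted p = 0.00832).

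Regulators of Hox loci were tested in the same way. Of 17 trithorax and elongation genes, 2 were higher in CD150hi HSC in both comparisons, beside 6.99% and 4.23% of all genes: Mllt3, a reader of acylated histones that maintains stem cells, averaged 36.0, 17.6 and 13.9 FPKM (log2 difference 1.36, adjusted p = 1.4e-10, and 0.98, adjusted p = 9.07e-08), and Aff1, a scaffold of the super elongation complex, averaged 22.5, 18.0 and 17.7 (0.36 and 0.30, adjusted p = 0.00694 and 0.0381). Of 17 Polycomb genes tested, 1 was higher and 1 lower against CD150neg MPP, and 2 were higher and 1 lower against CD150lo HSC, beside 6.2% and 3.41% of all genes lower. Pcgf2, a subunit of Polycomb repressive complex 1, averaged 10.8, 6.71 and 6.05 FPKM (0.80 and 0.64, adjusted p = 0.00399 and 0.0269), Cbx7 differed from CD150lo HSC by 0.43 (adjusted p = 0.0158), and Cbx2 was lower, at 2.07, 3.60 and 4.59 (-0.84 and -0.60, adjusted p = 7.54e-05 and 0.00423). The median log2 differences of these lists lay between -0.11 and 0.01, beside -0.0046 and -0.0052 for all genes.

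Of 14 genes known as targets of HOXA9 and MEIS1, 1 was higher and 4 were lower in CD150hi HSC than in CD150neg MPP, beside 6.99% and 6.2% of all genes. Bcl2, a survival gene, was higher (log2 difference 0.51, adjusted p = 0.016), and the receptor Flt3 (-3.59, adjusted p = 2.02e-16), the surface protein Cd34 (-2.06, adjusted p = 6.42e-13), the transcription factor Sox4 (-0.96, adjusted p = 1.73e-06) and the cell cycle kinase Cdk6 (-0.72, adjusted p = 0.000626) were lower. Flt3 and Cd34 are progenitor markers of this compartment, and the same 4 were lower than in CD150lo HSC (-2.93, -1.64, -0.76 and -0.60). Between CD150lo HSC and CD150neg MPP Flt3 was called (-0.66, adjusted p = 0.0222). In none of the cofactor, regulator and target lists was a gene called between genotypes. The deleted gene that checked the genotype labels, whose protein the paper places among regulators of transcription, was kept out of these lists. That gene was called lower in the deletion mice in CD150hi, CD150lo and CD150neg cells (log2 difference -0.88, -0.70 and -0.98).

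The flanks of the clusters were measured to see whether other genes there moved. Of 16 flanking genes tested, Atp5g3, a subunit of the mitochondrial ATP synthase, was higher (log2 difference 0.34, adjusted p = 0.0398) and Hnrnpa1, an RNA-binding protein, was lower (-0.41, adjusted p = 0.00294) in CD150hi HSC than in CD150neg MPP, and none was called against CD150lo HSC. Against CD150neg MPP this is 1 of 16 in each direction, beside 6.99% of all genes higher and 6.2% lower. Of 9 other annotated genes tested between the outermost Hox genes, 1 was called, Gm15051, in the Hoxa cluster. Gm15051 was higher in CD150hi HSC than in CD150neg MPP, as were 6.99% of all genes. It averaged 3.15, 2.27 and 0.967 FPKM in CD150hi, CD150lo and CD150neg cells (1.02, adjusted p = 0.00405, against CD150neg MPP). The others reached mean levels like those of mid-level Hox genes, with 9930038K12Rik at 7.28, Gm15050 at 5.40, Gm11536 at 4.01 and Hoxb3os at 3.94 FPKM.

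Neighboring Hox genes did not vary closely together across libraries. After the 6 group means were removed, the correlation of log2 values over the 29 libraries ranged from -0.34 to 0.49 (median 0.18) for 11 pairs of neighbors within a cluster, had a median of -0.03 for 32 pairs farther apart in a cluster and of 0.01 for 62 pairs in different clusters. These are descriptions over libraries that share amplification and depth. The longest stretch of identical bases between exons of members that do not overlap was 52 bases, between Hoxa6 and Hoxb4, which is shorter than a read, and 22 pairs shared at least 31 bases.

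Markers of other cells were measured beside the Hox differences. Summed FPKM of B cell markers was 6.65 to 32.2 in CD150hi, 6.20 to 23.6 in CD150lo and 7.88 to 21.3 in CD150neg libraries, that of T cell markers 2.54 to 3.90, 2.90 to 8.06 and 4.13 to 10.8, and that of erythroid markers 4.91 to 16.8, 8.63 to 24.2 and 5.78 to 27.3. Granulocyte and monocyte markers ran from 36.3 to 898 in CD150hi, 53.9 to 1364 in CD150lo and 42.1 to 285 in CD150neg libraries, megakaryocyte markers from 22.7 to 52.6, 29.6 to 49.5 and 25.7 to 58.5, and stromal and endothelial markers from 0.45 to 3.52, 0.38 to 2.45 and 0.31 to 2.09. Between CD150hi HSC and CD150neg MPP, Mpo, Ly6c1 and Cd4 were lower and Itga2b and Kdr higher in CD150hi HSC, 5 genes of the 6 lists in all. The genes tested were 4 erythroid, 4 megakaryocyte, 7 granulocyte and monocyte, 3 B cell, 2 T cell, and 2 stromal and endothelial markers. Over all genes, 6.99% were called higher and 6.2% lower. Of the 6 B cell and 6 T cell markers, 3 and 2 passed the filter. Among those below it, Ms4a1 was at most 0.0441, Pax5 at most 0.326, Cd3g at most 0.104 and Cd8a at most 0.0764 FPKM. The part of these markers in the Hox differences was not tested.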

How the data were processed

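The authors sorted cells from each mouse, amplified 10 ng of total RNA (Ovation V2), prepared TruSeq libraries and sequenced them in pairs. The submitters' processing notes name Bowtie version 0.12.2, HTSeq and mm9, and nothing states that strand was used in counting. They deposited 1 table of FPKM per gene and library, which is not quantile normalized. Fragments were recovered from the steps of the low values with GENCODE exon lengths. 98.0% to 98.6% of the low values of a library were whole fragments, and 3 fragments were used as the floor. Since fragments were amplified, the floor speaks of counting error alone.

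Genes that reached 1 FPKM in 4 or more libraries entered the tests, after a pseudocount of 1, log2 transformation and quantile normalization. Differences were fitted with limma (version 3.58.1, R version 4.3.3) on 6 group means over the whole table, and contrasts were tested two-sided with Benjamini-Hochberg adjustment over all genes tested. The fit was tested on simulated data. Python version 3.11.15 with pandas version 2.3.3, numpy version 2.4.6 and matplotlib version 3.10.9 was used for counts and figures. The alternatives were another pseudocount (0.1), filter (none, or 10 libraries), scaling (none, or by the median) and spread estimate, only the groups compared, age as a covariate, a block for the mouse, each mouse left out and each genotype alone.

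A code in the sample labels assigns libraries of different populations to the same animal, which pairs them across populations but not across genotypes. The correlation of same-mouse deviations from the group means had a median of 0.07 for CD150hi with CD150neg (0.02 to 0.18), 0.07 for CD150hi with CD150lo (-0.04 to 0.15) and 0.09 for CD150lo with CD150neg (-0.01 to 0.23), and the consensus correlation was 0.0793.

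Every Hox gene but 1 is named, and that gene and 1 cofactor gene are not reported here. Members called, and the 6 with the highest mean FPKM, have a value in every library, and the others have ranges. Of each list of other genes, the other called ones and at most 4 of the highest are named. Members and gene lists were chosen with earlier results of these data known.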

Additional observations from a re-analysis of the deposited data

Results flagged for a closer look

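In each group of 4 or 5 libraries, the gap of the highest or lowest library to its neighbor was compared with Dixon's 95% critical value for the 15 Hox genes tested. Of 90 groups, 11 held such a library, where normally distributed values would give about 1 in 20, or 4.5. FPKM was not transformed for this and need not be normally distributed, so 4.5 is not the number to be had by chance here. All 11 were high values.

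In CD150hi HSC, Hoxa2 stood at 5.06 FPKM in WT mouse 3 (1.81 to 2.35 in the others of the group) and at 7.19 in 5A3+/del mouse 1 (2.18 to 3.40), and Hoxa7 at 11.2 in 5A3+/del mouse 3 (8.38 to 9.16). In CD150lo HSC, Hoxa10 stood at 14.7 in WT mouse 3 (7.29 to 8.49), Hoxb3 at 3.62 in WT mouse 1 (1.14 to 1.36), Hoxb6 at 2.58 in WT mouse 4 (0.728 to 1.08) and Hoxb9 at 0.170 in WT mouse 3 (0 to 0.0443), which is 11 fragments. In CD150neg MPP, Hoxa9 stood at 25.4 in 5A3+/del mouse 1 (20.3 to 20.7), Hoxb4 at 7.31 in WT mouse 1 (4.72 to 5.25) and Hoxb8 at 1.11 in 5A3+/del mouse 3 (0.0120 to 0.190), which is 78 fragments. Hoxb8 at 0.0245 in WT CD150neg mouse 5 is 2 fragments against 0 in the others and is under the floor of 3 fragments. WT mouse 3, which stood apart in Xist, holds 3 of these values.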

How the results depend on the processing

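No called Hox gene changed its direction under any alternative. For CD150hi minus CD150neg the count of 8 called genes became 5 in WT alone, 4 in 5A3+/del alone and 5 to 8 with each mouse left out, the 5 without 5A3+/del mouse 3. Over all genes, 2033 were called in the main fit, 1548 in WT alone, 949 in 5A3+/del alone and 1638 to 1891 with each mouse left out. For CD150hi minus CD150lo the count of 5 became 3 with the filter in at least 10 libraries, under which Hoxb8 and Hoxb9 were not among the 12 Hox genes tested, 3 in 5A3+/del alone and 3 to 7 with each mouse left out, the 3 without WT mouse 3 or 5A3+/del mouse 2 or 3. Over all genes the main fit called 1177, the filter in at least 10 libraries 1069, 5A3+/del alone 490 and the fits with each mouse left out 905 to 1086. Hoxb8 was not tested without WT mouse 3 or 5 or 5A3+/del mouse 2 or 3, where it fell below the filter. With the mouse as a block the paired fits gave 9 (random effect) and 8 (fixed term) Hox genes for CD150hi minus CD150neg and 6 and 4 for CD150hi minus CD150lo, and 0 for the other comparisons. Of all 15409 genes, these fits called 2278 and 2210 for CD150hi minus CD150neg and 1379 and 1385 for CD150hi minus CD150lo. The genotype, CD150lo minus CD150neg and interaction counts were 0 under every alternative run. Hoxb5 stayed called in 22 of 22 alternatives in both comparisons, while Hoxa9 stayed called in 12 of 22 against CD150lo HSC and Hoxb4 in 15 of 22 against CD150neg MPP. Hoxb9 stayed called in 21 of 21 in which it was tested. All of these except the fit with no filter used a filter that Hoxb9 passed only through its CD150hi libraries, so this tally does not count as support. Apart from the alternatives with fewer libraries or genes, the cause was not tested. Low counts limit Hoxb8, Hoxb9 and Hoxc6, whose log2 differences depend on the pseudocount.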
